A study of Mus musculus with 9 samples.

Results

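Trpc6 and Kcnn2 were read here through their circular RNAs (circRNAs), closed RNA rings made when the end of an exon is spliced back to the start of the same or an earlier exon. The members are the rows of the deposited circRNA table whose host gene is Trpc6 or Kcnn2. Each gene had exactly 1 ring, so the 2 genes account for 2 of 11312 circRNAs and 2 of 3929 host genes, and each host sum equals its ring. A single ring was the case for 1753 hosts (44.6%). Both genes were chosen by measured values. Trpc6 was selected on its APAP levels against control. Kcnn2 was selected on the same contrast without the shallow control library, and on dmPGE2+APAP against APAP. Every other contrast of a ring shares a group with one that chose it, so all ring fold changes below are descriptions with no test.

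Livers were from C57 BL6 mice of wild-type genotype at 8 weeks of age, weighing 20 g on average, with 3 libraries in each of 3 groups. Mice of the dmPGE2+APAP group received 300 µg/kg dmPGE2, a long-lived analogue of prostaglandin E2, by intraperitoneal injection 1 hour before 500 mg/kg acetaminophen (APAP). The series' own design text can be read as APAP or dmPGE2 given singly; the sample labels name both agents for this group and were followed. Mice of the APAP group received the same APAP dose alone, which at overdose injures the liver, and control mice received saline. Livers were collected 6 hours after APAP, and the labels give no separate time for saline. Nothing in the labels says that the libraries of a group came from separate animals, and p-values then reflect only the spread between libraries, which may be technical.

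TRPC6 is a cation channel of the plasma membrane that opens to diacylglycerol, a product of phospholipase C, and lets calcium and sodium into the cell. KCNN2, also called SK2, is a potassium channel of small conductance that senses calcium through bound calmodulin and lets potassium out. TRPC6 thus stands on the side of calcium entry and KCNN2 on that of the response to calcium. A back-splice read counts the ring and not the messenger RNA, and a ring level is no measure of channel protein.

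The Trpc6 ring (mmu_circ_0001743, gene ENSMUSG00000031997) lies at chr9:8634047-8658377 on the plus strand of GRCm38. Its ends are those of exon 10 and exon 4 among the 13 exons of transcript Trpc6-201 in GENCODE M21. The sequences below, read from the GENCODE M21 transcript, are shown because the join of exon 10 to exon 4 is what each counted read has to cross. In the junction line the capitals mark the first 25 bases of exon 4, which follow the last 25 bases of exon 10 in lower case.
Trpc6 exon 10: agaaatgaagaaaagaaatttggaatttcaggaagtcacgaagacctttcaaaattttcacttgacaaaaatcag
Trpc6 exon 4: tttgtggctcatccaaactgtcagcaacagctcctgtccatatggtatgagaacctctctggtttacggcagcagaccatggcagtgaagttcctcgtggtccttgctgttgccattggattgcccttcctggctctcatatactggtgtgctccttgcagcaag
Trpc6 back-splice junction: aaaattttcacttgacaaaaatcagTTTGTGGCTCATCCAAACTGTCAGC

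Between those ends Trpc6-201 has 7 exons, all coding, of 1356 bases in all, which equals the spliced length in the deposited table. The table itself lists only the 2 outer exons (240 bases). Such a gap was common: of 803 exonic rings with an mmu_circ identifier, 388 (48.3%) had a spliced length above that of their listed exons. The 7 exons make 452 whole codons for residues 376 to 827 of the 930 in the protein, with 0 stop codons and 20 ATG codons in that frame. Of the 3 annotated transcripts, 2 use both ring ends, and in the other of these the exons between them number 6 and hold 1122 bases. Back-splice reads do not show which inner exons a ring keeps.

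The Kcnn2 ring (mmu_circ_0000870, gene ENSMUSG00000054477) is a single exon, exon 6 of the 11 exons of transcript Kcnn2-201, at chr18:45592006-45592424 on the plus strand of GRCm38. Its 419 bases are coding sequence for residues 455 to 594 of 839, and they are not a multiple of 3, so the reading frame shifts at the join. Of the 10 annotated transcripts, 5 contain both ends. One listed exon was found in 2751 of 10591 exonic rings (26.0%), and a listed length that is a multiple of 3 in 37.1%. The rings thus differed in size, exon number and reading frame, while their GC contents were close, 42.1% for Trpc6 and 42.7% for Kcnn2.

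**Figure D1:**
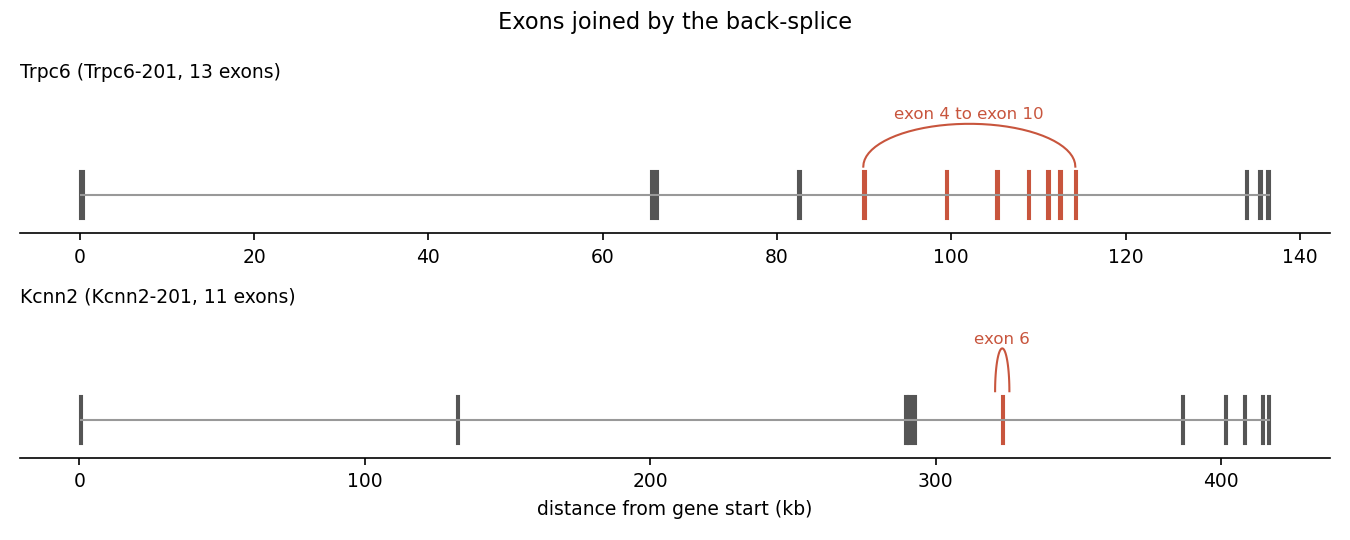
Exons of Trpc6-201 (above) and Kcnn2-201 (below) by distance from the gene start in kilobases, with ring exons in red and the back-splice drawn as an arc; the narrowest boxes are widened to stay visible. The Trpc6 ring runs from exon 4 to exon 10, and the Kcnn2 ring is exon 6 alone.

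Depth set how each control library could be read. Library totals were 69268 to 154449 back-splice reads over 8 libraries, and 4362 in the library called control 3. Levels are given as CPM, back-splice reads per 1000000 back-splice reads of the library. In control 3, 3 reads equal 688 CPM, above the level of either ring in any other library. Its lowest listed count, 2 reads, equals 459 CPM, above every Trpc6 level but below Kcnn2 in control 2 and all dmPGE2+APAP libraries. At so few reads, its 0 was not read as a difference for either ring. Elsewhere 3 reads equal 19.4 to 43.3 CPM. No library holds a count of 1, and 2 is the lowest count above 0 in each, so a listed 0 may stand for a read left out. The control columns carry a code that no label explains and were assigned to saline by elimination. Ring levels and fits are given with and without control 3, and cell type markers and the most similar hosts without it. In the host fit, leaving out control 3 moved the median log2 fold change of all hosts in APAP against control from 0.15 to -0.04.

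Trpc6 ring reads were most frequent after APAP alone. The ring had 133, 50.5 and 87.1 CPM (16, 5 and 10 reads) in dmPGE2+APAP livers, against 340.5, 448 and 419 CPM (37, 49 and 29 reads) in APAP livers. Control libraries held 0, 46.2 and 0 CPM (0, 6 and 0 reads). Every APAP library lay above every other library as listed, control 3 being uninformative. Mean levels were 90.1 ± 41.2 CPM in dmPGE2+APAP livers, 402 ± 55.4 CPM in APAP livers and 15.4 ± 26.7 CPM in control livers (SD, n = 3 each). Without control 3 the control mean was 23.1 ± 32.6 CPM (n = 2). The ratio of APAP to control means was 26.1 with all libraries and 17.4 without control 3, and it rests on the 6 reads of control 2. A change in the number of cells of a type and a change in this RNA per cell cannot be told apart in whole liver.

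The order of Trpc6 levels was thus APAP, then dmPGE2+APAP, then control. APAP and dmPGE2+APAP did not overlap, and the 95% Wilson interval of the lowest APAP library, 247 to 469 CPM, lay above that of the highest dmPGE2+APAP library, 81.7 to 216 CPM. The neighbours dmPGE2+APAP and control came close. The lowest dmPGE2+APAP library had an interval of 21.6 to 118 CPM, against 21.2 to 101 CPM for control 2, so counting error alone spans the gap between 50.5 and 46.2 CPM. These intervals cover counting error only.

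**Figure D2:**
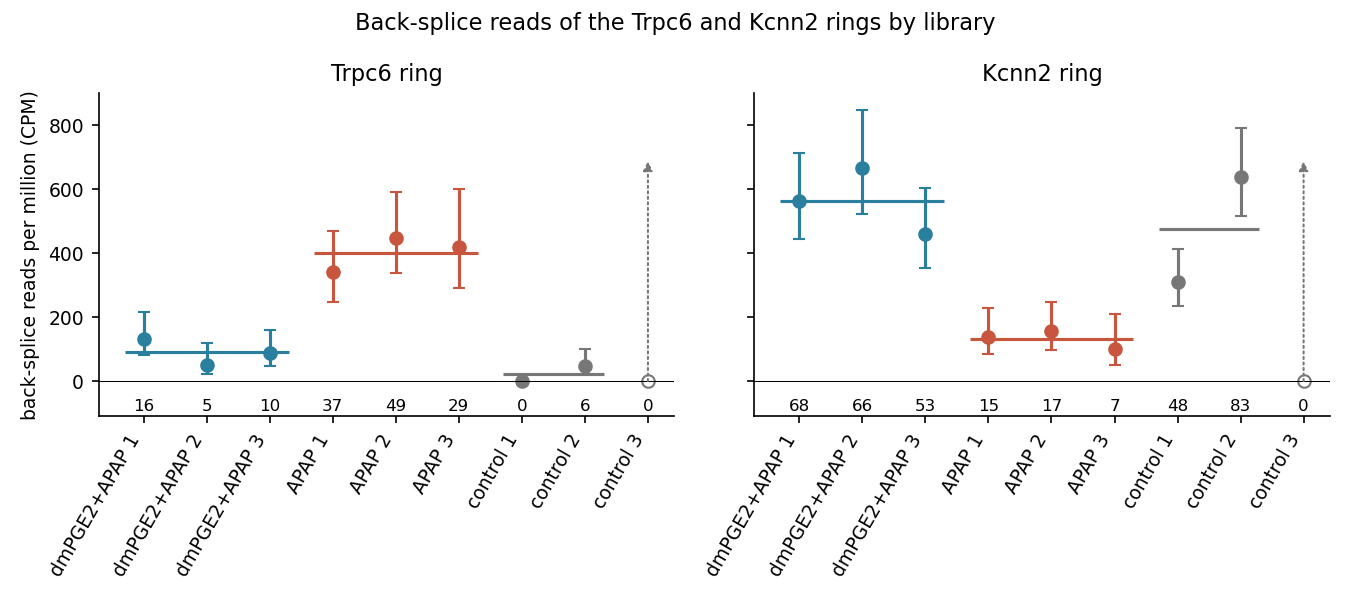
Back-splice reads in CPM of each ring in each library, with 95% Wilson intervals where reads were listed, read counts under the points and group means as lines (control mean without control 3). In control 3, an open circle, the dotted arrow ends at 688 CPM, the worth of 3 reads there. Trpc6 points are highest in the APAP libraries, where Kcnn2 points are lowest.

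Kcnn2 ring reads were least frequent after APAP alone. The ring had 564, 666 and 462 CPM (68, 66 and 53 reads) in dmPGE2+APAP livers, against 138, 155 and 101 CPM (15, 17 and 7 reads) in APAP livers. Control libraries held 311, 639 and 0 CPM (48, 83 and 0 reads). The APAP libraries lay below every library but control 3, while dmPGE2+APAP overlapped control. Means were 564 ± 102 CPM in dmPGE2+APAP livers, 131 ± 27.7 CPM in APAP livers and 316 ± 319 CPM in control livers (SD, n = 3 each). The control mean without control 3 was 475 ± 232 CPM (n = 2).

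How low Kcnn2 appeared after APAP depended on the control libraries. The ratio of APAP to control means was 0.415 with all libraries and 0.277 without control 3, and that of dmPGE2+APAP to control was 1.78 with all libraries and 1.19 without it. Against APAP, dmPGE2+APAP had 4.29 times the mean level, a ratio that uses no control library. The remaining control libraries also stood apart, since the intervals of control 1 (234 to 412 CPM) and control 2 (515 to 791 CPM) did not meet. Such intervals cover counting error only, and over all rings compared the replicates of every group differed beyond it. Intervals that do not meet are therefore not particular to this pair. In order of level, dmPGE2+APAP and control were neighbours that did not differ beyond their spread, and APAP was below both.

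Within a library, the rings changed places in abundance, counted at 1 junction per ring and so with no length term. Among the rings with reads, the Trpc6 ring ranked 1443, 3348 and 2210 in dmPGE2+APAP libraries and 524, 394 and 464 in APAP libraries. The Kcnn2 ring ranked 303, 258 and 379 in dmPGE2+APAP libraries and 1393, 1229 and 2063 in APAP libraries. Control 2, which held both rings, had ranks of 3474 for Trpc6 and 260 for Kcnn2. Across the 8 libraries without control 3 the log2 CPM of the rings had Pearson's r = -0.67, a description over libraries that share group and depth. Trpc6 exceeded Kcnn2 in 3 of 3 APAP libraries and in 0 of 3 dmPGE2+APAP libraries. The rings were chosen on APAP levels that lay in opposite directions. The change of places and the negative r therefore follow in part from the choice and show no link between the rings.

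Fold changes were fitted over all host sums with at least 5 reads in at least 3 libraries, 2358 hosts, both members among them. For APAP against control the fitted log2 fold change was 4.15 ± 1.11 (SE) for Trpc6 and -1.60 ± 0.62 for Kcnn2; without control 3 these were 4.07 ± 1.04 and -1.86 ± 0.49. For Kcnn2 in dmPGE2+APAP against APAP it was 2.09 ± 0.61, and 2.08 ± 0.45 without control 3. Leaving out control 2 gave a Kcnn2 value of -0.90 for APAP against control, and leaving out control 1 a Trpc6 value of 3.24. All of these are descriptions, since the genes were chosen on them.

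The remaining contrasts each use at least 1 group whose values chose the gene. For Trpc6 the log2 fold change of dmPGE2+APAP against APAP was -2.10 ± 0.88 (SE), and -2.11 ± 0.78 without control 3. All 3 dmPGE2+APAP libraries lay below all 3 APAP libraries. Against control, Trpc6 in dmPGE2+APAP had a log2 fold change of 2.04 ± 1.09, and 1.96 ± 1.01 without control 3, and leaving out control 1 brought it to 1.14. Kcnn2 in dmPGE2+APAP against control had 0.49 ± 0.58, within 1 SE of 0, and 0.22 ± 0.46 without control 3. Without control 2 it was 1.20. The comparisons share libraries and are not independent of each other.

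Few hosts passed this test at all. In APAP against control 0.339% of the 2358 hosts were called with all libraries and 0.212% without control 3. In dmPGE2+APAP against APAP the shares were 0.127% and 0.170%, and in dmPGE2+APAP against control 0.170% and 0.127%. Ranges of CPM that do not overlap, in either direction and without control 3, were much more frequent. They occurred in 20.1% of hosts for APAP against control, where both members were among them by the choice. For dmPGE2+APAP against APAP they occurred in 10.0% of hosts, again with both members, Kcnn2 by the choice. For dmPGE2+APAP against control they occurred in 20.8% of hosts, with Trpc6 and not Kcnn2. At such background shares, separate ranges of single hosts are common.

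**Figure D3:**
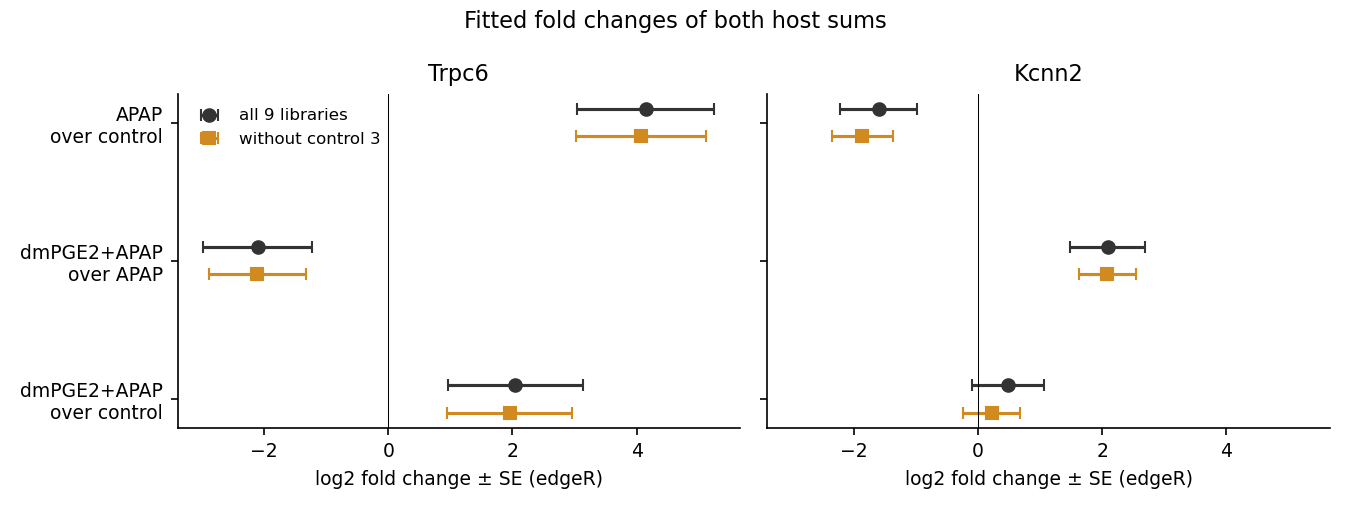
Fitted log2 fold changes of the Trpc6 and Kcnn2 host sums with their SE from edgeR, over all 9 libraries (circles) and without control 3 (squares). Trpc6 is at 4.15 for APAP over control and at -2.10 for dmPGE2+APAP over APAP, and Kcnn2 at -1.60 and 2.09.

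A readout that did not choose the members was the reads at the same ends that do not cross the back-splice (non-junction reads). The table gives them only for libraries with back-splice reads of that ring. At the Trpc6 ends they numbered 6, 1 and 0 in dmPGE2+APAP libraries, 7, 4 and 0 in APAP libraries and 0 in control 2. At the Kcnn2 ends they numbered 33, 25 and 28 in dmPGE2+APAP libraries, 11, 19 and 30 in APAP libraries and 11 and 36 in control 1 and control 2. Trpc6 thus had almost no signal beside the back-splice, and Kcnn2 had some in every library listed.

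No difference between groups in Kcnn2 non-junction reads was detectable with these libraries. Values were scaled within each library per 1000000 non-junction reads of 1125 rings, those with usable lists in all 8 libraries without control 3. Kcnn2 then averaged 431 ± 37.6 in dmPGE2+APAP livers (SD, n = 3), 325 ± 163 in APAP livers (n = 3) and 351 ± 278 in control livers (n = 2). The difference was 106 for dmPGE2+APAP minus APAP (exact permutation test, two-sided, p = 0.4), 80.1 for dmPGE2+APAP minus control (exact p = 0.8) and -26.1 for APAP minus control (exact p = 1). For Trpc6, dmPGE2+APAP averaged 33.7 ± 45.5 and APAP 57.3 ± 53.1, a difference of -23.6 (exact permutation p = 0.7). With 4 such tests every adjusted p was 1, and the smallest p these group sizes allow is 0.1. The groups overlapped in all 4 comparisons of non-junction reads.

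The circular share sets back-splice reads, counted at both ends, against the sum of these and the non-junction reads. For Trpc6 it was 84.2%, 90.9% and 100% in dmPGE2+APAP livers, 91.4%, 96.1% and 100% in APAP livers and 100% in control 2. All of these were above the share in the pooled reads of 1125 rings with usable lists in 8 libraries, which was 54.8% to 67.5% per library. For Kcnn2 the share was 80.5%, 84.1% and 79.1% in dmPGE2+APAP livers, 73.2%, 64.2% and 31.8% in APAP livers, and 89.7% and 82.2% in control 1 and control 2. Except in APAP 2 and APAP 3, these too lay above the share over the 1125 rings. Kcnn2 shares were lower in every APAP library than elsewhere, but the back-splice reads in this share are those that chose Kcnn2, so no share was tested. The lowest of them, 31.8% with a 95% Wilson interval of 17.3% to 51.0%, belongs to APAP 3, which also has the fewest reads of the 8 libraries and the lowest share over the 1125 rings; the part of depth in it was not tested. The Kcnn2 share averaged 81.2% ± 2.57 in dmPGE2+APAP livers (SD, n = 3) and 85.9% ± 5.33 in control livers (n = 2).

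**Figure D4:**
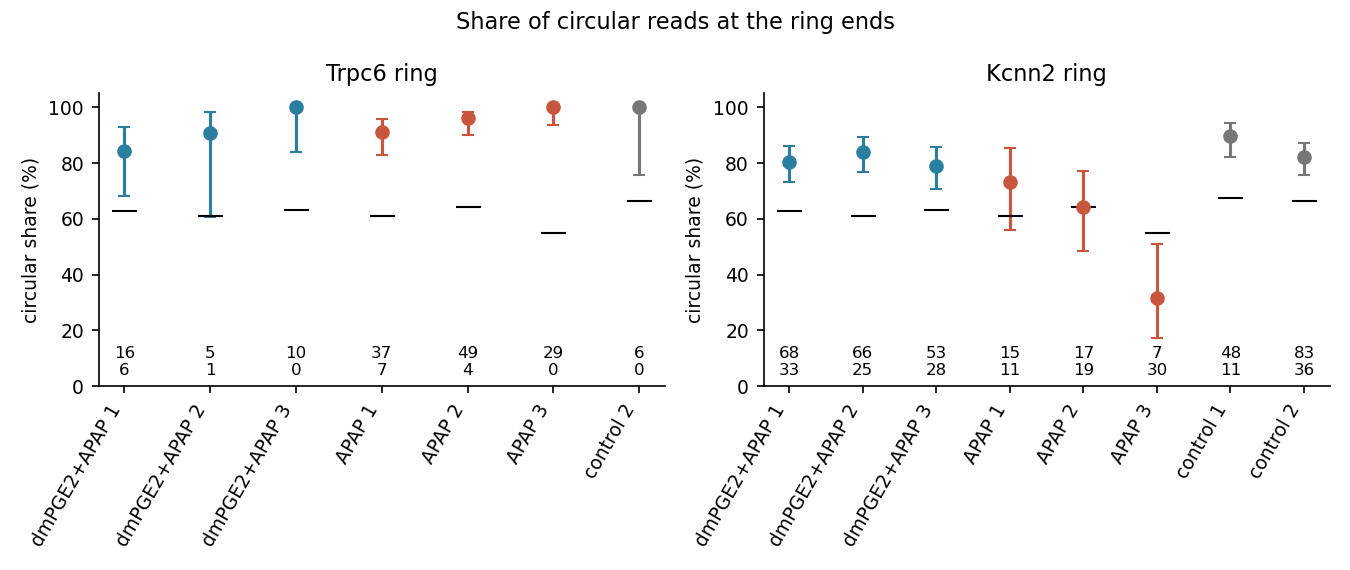
Circular share in percent at the ends of each ring by library, with 95% Wilson intervals; numbers give back-splice reads (upper) and non-junction reads (lower), and black dashes the share over 1125 rings of that library. Trpc6 shares lie between 84.2% and 100%, and Kcnn2 shares reach 31.8% in APAP 3.

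Other hosts of calcium signalling and channel genes were read from 9 lists. Of these genes 40 had a ring and 17 were tested, in 6 of the lists, with the members left out. In each of the 3 comparisons 0 of the 17 rose and 0 fell by edgeR at an adjusted p of 0.05, and 0 had an unadjusted p under 0.05. Over all hosts tested, 5.34% had such an unadjusted p in APAP against control, 2.71% in dmPGE2+APAP against APAP and 4.24% in dmPGE2+APAP against control, so none among 17 is near the background. Their median log2 fold change was -0.29 in APAP against control, 0.31 in dmPGE2+APAP against APAP and 0.33 in dmPGE2+APAP against control. The same medians over all hosts tested were 0.15 in APAP against control, 0.03 in dmPGE2+APAP against APAP and 0.20 in dmPGE2+APAP against control. Without control 3 the median of the 17 was -0.42, 0.31 and 0.13 in these comparisons, and that of all hosts -0.04, 0.03 and 0.03. By DESeq2 0 of the 17 were called and 0 had an unadjusted p under 0.05 in each comparison, with 4 lacking an adjusted p in APAP against control.

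Among channels that pass calcium, Trpm7, a TRP channel fused to a kinase, averaged 541 ± 154 CPM in dmPGE2+APAP livers, 637 ± 53.5 CPM in APAP livers and 320.4 ± 308 CPM in control livers (481 ± 190.1 CPM without control 3). Mcoln1, the TRP channel of lysosomes, had 11, 12 and 19 reads in dmPGE2+APAP libraries, 12, 0 and 0 in APAP libraries and 18, 14 and 2 in control libraries. The inositol trisphosphate receptors release calcium from the endoplasmic reticulum, and Itpr2 had the highest mean CPM of the 17 hosts. Itpr2 averaged 1283 ± 92.4 CPM in dmPGE2+APAP livers, 1261 ± 255 CPM in APAP livers and 901 ± 483 CPM in control livers (1122 ± 415 CPM without control 3), and Itpr1 averaged 679 ± 139 CPM in dmPGE2+APAP livers, 585 ± 119 CPM in APAP livers and 734 ± 161 CPM in control livers (757 ± 221 CPM without control 3).

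Calcium sensing and removal were represented by few rings. Stim2, a calcium sensor of the endoplasmic reticulum, averaged 444 ± 73.1 CPM in dmPGE2+APAP livers, 317 ± 107 CPM in APAP livers and 322 ± 286 CPM in control livers (484 ± 85.3 CPM without control 3). Atp2a2, a calcium pump of the endoplasmic reticulum, had 8, 4 and 9 reads in dmPGE2+APAP libraries, 20, 19 and 4 in APAP libraries and 9, 0 and 0 in control libraries. Its log2 fold change of APAP against control, 2.33 ± 1.70 (SE), did not pass (edgeR adjusted p = 1.00). Atp2b1, a calcium pump of the plasma membrane, and Slc8b1, the sodium-calcium exchanger of mitochondria, averaged at most 75.9 CPM in any group.

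Around diacylglycerol, which opens TRPC6, the tested hosts were the phospholipases Plce1 and Plcb1 and the G protein subunit Gnaq, on the side of its making, and Dgke, a kinase that uses it up. Plce1 averaged 245 ± 14.8 CPM in dmPGE2+APAP livers, 152 ± 62.7 CPM in APAP livers and 68.1 ± 98.7 CPM in control livers (102 ± 112 CPM without control 3). Plcb1 averaged 124 ± 65.2 CPM in dmPGE2+APAP livers, 70.5 ± 61.2 CPM in APAP livers and 18.5 ± 16.7 CPM in control livers (27.7 ± 6.57 CPM without control 3). Gnaq averaged 115 ± 65.9 CPM in dmPGE2+APAP, 121 ± 22.0 CPM in APAP and 58.7 ± 66.4 CPM in control livers. Without control 3 its control mean was 88.1 ± 60.4 CPM. Dgke averaged 128 ± 51.7 CPM in dmPGE2+APAP, 96.2 ± 20.4 CPM in APAP and 97.6 ± 85.9 CPM in control livers. Its control mean without control 3 was 146 ± 22.0 CPM. The hosts thus had no common order of groups, and none of them passed in any comparison. In the list of calmodulin, calcineurin, protein kinase C and NFAT genes, the protein kinase C gene Prkce averaged 986 ± 147 CPM in dmPGE2+APAP livers, 808 ± 165 CPM in APAP livers and 838 ± 276 CPM in control livers (683 ± 95.8 CPM without control 3). Nfatc3, Ppp3cc and Camk1d, and Adcy9, an adenylyl cyclase of the pathway of prostaglandin E2 receptors, averaged at most 70.8 CPM in any group with all libraries. Each mean is over 3 libraries, or 2 for control without control 3.

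**Figure D5:**
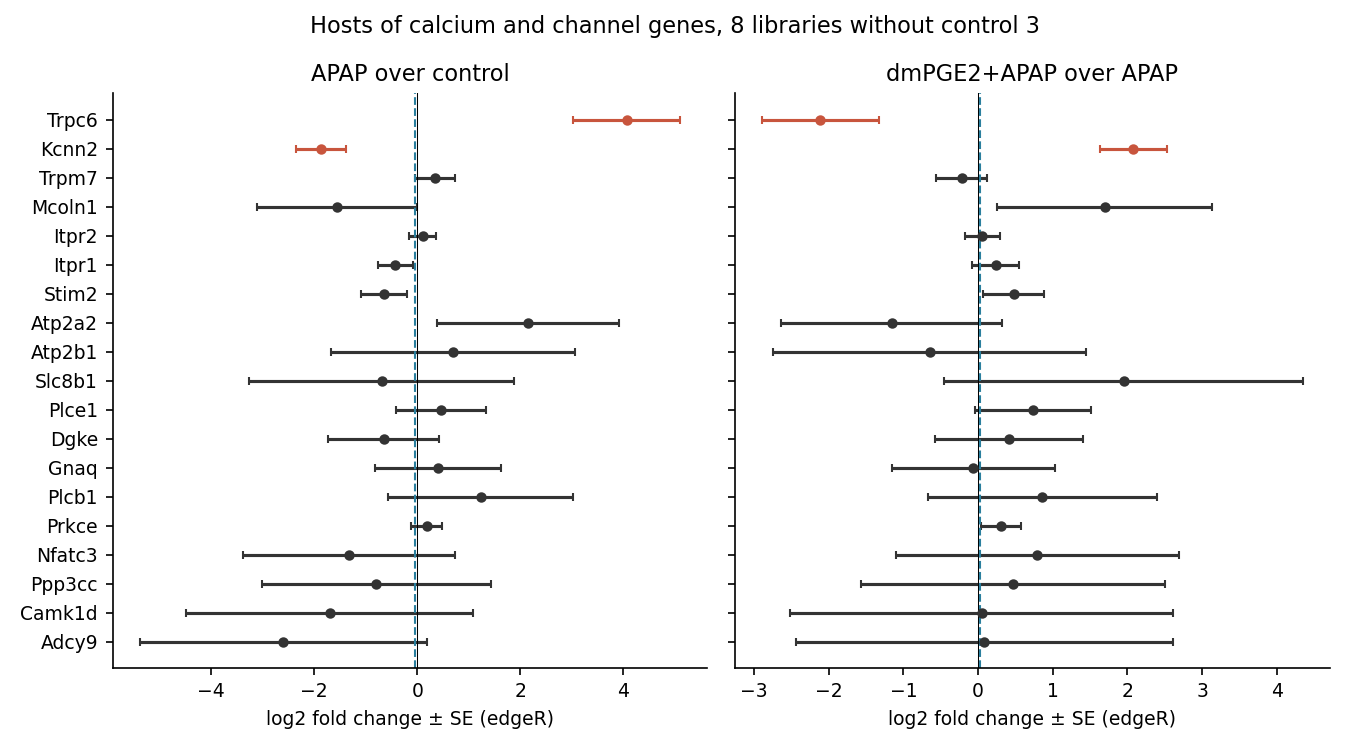
Fitted log2 fold changes with SE (edgeR, 8 libraries without control 3) of Trpc6 and Kcnn2 in red and of the 17 tested hosts of the calcium and channel lists in black; the dashed line is the median of all hosts tested. Trpc6 lies at 4.07 and -2.11 and Kcnn2 at -1.86 and 2.08. Both were chosen by their values, so no test is given for them and their distance from the 17 is no result. Of the 17 hosts in black, 0 passed the test.

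The hosts whose log2 CPM ran most like that of each member were taken over the 8 libraries without control 3 among 2358 hosts, as a description. Closest to Trpc6 was Neat1, a nuclear long noncoding RNA, with Pearson's r = 0.98. Neat1 ring reads numbered 20, 7 and 15 in dmPGE2+APAP libraries, 88, 97 and 65 in APAP libraries and 0 and 3 in control 1 and control 2. The next were Fam120a (r = 0.94), Rsu1 and Ehbp1 (r = 0.92 each) and St3gal5 (r = 0.91). Closest to Kcnn2 were Cep128 and Cab39l (r = 0.92 each), then Foxp4, Rprd1a and Zc3h7a (r = 0.91 each). Cep128 reads numbered 28, 17 and 12 in dmPGE2+APAP libraries, 4, 7 and 0 in APAP libraries and 8 and 26 in control 1 and control 2. The points share library, depth and group.

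Markers of liver cell types were looked up among the hosts. Of 12 genes for stellate cells, fibroblasts and smooth muscle, 1 had a ring, with a level of 0 CPM in dmPGE2+APAP libraries, 0 to 45.7 CPM in APAP libraries and 0 CPM in control 1 and control 2. None of 6 neutrophil markers had a ring. Hepatocyte marker rings (6 of 9 genes) summed to 1246 to 1327 CPM in dmPGE2+APAP livers, 1124 to 1518 CPM in APAP livers and 800.2 to 855 CPM in control 1 and control 2. Sinusoidal endothelial rings (5 of 8 genes) summed to 1551 to 1836 CPM in dmPGE2+APAP livers, 780 to 2080 CPM in APAP livers and 1816 to 2001 CPM in control 1 and control 2. Rings of Kupffer cells (1 of 6 genes) summed to 696 to 967 CPM in dmPGE2+APAP livers, 245 to 975 CPM in APAP livers and 686 to 816 CPM in control 1 and control 2. For cholangiocytes (1 of 8 genes) the sums were 200.4 to 464 CPM in dmPGE2+APAP livers, 183 to 331 CPM in APAP livers and 97.1 to 231 CPM in control 1 and control 2. Of the 10 marker hosts tested, 0 were called by edgeR or by DESeq2 in any of the 3 comparisons, and 1 had an unadjusted p under 0.05, in APAP against control, by either tool. By edgeR this host was the hepatocyte marker Alb, with a log2 fold change of 2.40 ± 1.12 (SE). The part of cell makeup in the Trpc6 and Kcnn2 levels was not tested.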

How the data were processed

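Liver total RNA depleted of ribosomal RNA was sequenced in 9 libraries, per the labels' protocols, with strand marked by dUTP. The authors deposited, per the file headers, a whole-number count of back-splice reads per circRNA and library, with lists of non-junction reads. The submitters' processing notes name HISAT2 and the build GRCm38 (mm10); the circRNA caller is not given in the sources used here. The 9 TPM columns were not used. Counts were summed per host gene; 132 circRNAs without a host (0.723% to 7.93% of reads) stayed in library totals only. Non-junction lists that had become a single number (1753 circRNAs) were left out.

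Members and lists were chosen with earlier results of these data known, and tests planned for the members' remaining contrasts and circular share are given as descriptions. Circular RNAs and host sums with at least 5 reads in at least 3 libraries entered edgeR 4.0.16 (R 4.3.3), with the quasi-likelihood test, TMM scaling, 1 mean per group, all 9 libraries, Benjamini-Hochberg adjustment over all features and a threshold of 0.05; the scripts were tested on simulated data. Likeness used log2 CPM with a prior count of 2. Up to 4 tested hosts with the highest mean CPM per list, and the 5 hosts most like each member, were named. Replicates differed beyond sampling noise. Alternatives were library totals, RLE size factors, DESeq2 1.42.0, no filter, each library left out and a replicate block.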

Additional observations from a re-analysis of the deposited data

How the results depend on the processing

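Both members kept the direction of their host and ring fold changes in every comparison under all alternatives that gave a value. The Trpc6 host sum in dmPGE2+APAP against APAP ranged from -2.50 to -1.81 on the log2 scale. With libraries left out, APAP against control ranged from 3.24 (without control 1) to 4.24 for Trpc6 and from -1.86 to -0.90 (without control 2) for Kcnn2. Without control 2 every remaining control library is at 0 for Trpc6, so no value is given. The main scale for Kcnn2 non-junction reads was the non-junction reads of 1125 rings. Scaled instead by all back-splice reads of the library, their difference, APAP minus control, turned to 61.9 (exact permutation adjusted p = 1). Control 3 gives no such value for either ring.

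Calls over all hosts were 8 in APAP against control (13 by DESeq2; 4 to 8 with libraries left out), 3 in dmPGE2+APAP against APAP (1 by DESeq2, 6 without the filter; 0 to 6) and 4 in dmPGE2+APAP against control (1 by DESeq2; 2 to 6). Calls over all circRNAs were 6 in APAP against control (12 on library totals, 14 by DESeq2; 3 to 10), 3 in dmPGE2+APAP against APAP (9 without the filter, 0 by DESeq2, with 159 at an unadjusted p under 0.05; 1 to 3) and 5 in dmPGE2+APAP against control (10 on library totals, 12 without the filter, 1 by DESeq2; 4 to 8). The cause was not tested. Library totals moved the median of all circRNAs in the last comparison from 0.24 to 0.12.

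Replicate numbers of the 6 libraries with APAP showed no sign of pairing, with correlations from -0.0015 to 0.014 in 3 pairs. Low counts weaken such correlations, so this check cannot decide whether the libraries were paired. With the replicate block, on those 6 libraries, 2 hosts and 4 circRNAs were called, against 1 host and 0 circRNAs by edgeR in the same 6 libraries without it (98 circRNAs at an unadjusted p under 0.05), a setting chosen after seeing the data, and with it the log2 fold change was -2.16 for Trpc6 and 2.12 for Kcnn2. Few reads per ring limit all values, and the depth of control 3 limits those against control.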
